A study of Homo sapiens with 6 samples.

Results

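Glycolysis, the handling of its end product pyruvate and the pentose phosphate branch were examined through 35 genes, from the glucose transporters to the pyruvate dehydrogenase kinases. A gene was taken as measured when a probe set of the array was annotated to that gene alone, and where several such probe sets existed the one with the highest mean over all arrays was kept. This gave 32 of the 35 genes, among 18417 genes in all. The other 3 were not analysed here: the probe sets annotated to PGAM1 also carry the name PGAM4, and no probe set was paired with SLC16A1 or SLC16A3, which encode lactate exporters.

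The arrays came from MDA-MB231, a breast cancer cell line established from a metastasis. There were 3 arrays of a clone with a stable knockdown of G9a and 3 of the parental cells, called control here; all cells were grown in serum-containing medium and harvested in logarithmic growth. The knockdown arrays represent 1 clone and the control is the parental line, so the effect of G9a and differences that arose in deriving the clone cannot be told apart. The labels do not say whether replicates are separate cultures; p-values therefore reflect the spread among these 6 arrays alone, possibly a technical one.

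Glycolysis splits glucose into pyruvate in the cytosol. Pyruvate is then either reduced to lactate and exported or oxidised in mitochondria by the pyruvate dehydrogenase complex, which pyruvate dehydrogenase kinases switch off. Many steps are encoded by several genes, called isoforms, whose expression differs between tissues, and many cancer cells take up much glucose and release lactate even when oxygen is present. The pentose phosphate branch draws off glucose 6-phosphate to make NADPH and ribose.

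EHMT2, the gene of G9a, read 9.66, 9.59 and 9.51 on the knockdown arrays, against 10.21, 10.27 and 9.93 on the control arrays (log2 intensity), and passed the test (difference -0.55, SE 0.10; limma, adjusted p = 0.0259). This call was lost in 5 of the 6 fits that leave out 1 array, with adjusted p up to 0.122 without knockdown replicate 3, and when every probe set was tested (0.0957). Correlations between arrays ran from 0.992 to 0.997 across probe sets. The 5 markers fixed for this line (VIM, CD44, AXL, CAV1 and MSN) lay outside the lowest 33.3% of genes by mean value and did not pass the test, as did the luminal genes KRT8, GATA3 and FOXA1, while the luminal genes ESR1 and PGR lay within them; none of these 5 passed either (limma; 1 at an unadjusted p of 0.05). Of 7 leukocyte markers measured none passed (limma, 3 at an unadjusted p of 0.05). Of these 7, 4 lay within the lowest 33.3% of genes, while CD14, CSF1R and CD68 (mean 12.14 in knockdown, 12.33 in control) lay outside. An unadjusted p below 0.05 was also found for 1 of the 5 line markers (MSN) and for 3568 of all 18417 genes (limma). Of 8 fibroblast and endothelial markers, 4 lay within the lowest 33.3%. CDH5, an endothelial cadherin gene, rose (0.71, limma, adjusted p = 0.0210). Array levels of that list (median over its genes) were -0.01 to 0.16 in knockdown and -0.16 to 0.01 in control about the 6-array mean. The CDH5 call was lost in 4 of the 6 fits that leave out 1 array (adjusted p up to 0.0869) and when every probe set was tested (0.0887), and PECAM1, another endothelial gene, had 0.42 with groups that did not overlap and did not pass (0.0591). The part of such cells in the results was not tested. In whole-culture RNA a change in the number of cells of a type and a change in RNA per cell cannot be told apart.

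Most enzymes of the pathway differed little between knockdown and control, and 3 genes passed the test at an adjusted p of 0.05. SLC2A1, the main glucose transporter gene of many tumour cells, and ALDOC, an aldolase gene best known from brain, fell, and PDK4, a kinase gene whose product inactivates pyruvate dehydrogenase, rose. Thus 1 of the 32 genes rose, 2 fell and 29 did not pass (limma, adjusted over all 18417 genes); among all genes tested 3.05% passed, 1.28% higher and 1.78% lower. Knockdown minus control had a median of -0.02 over the 32 genes, beside 0.03 over all genes. Each difference given is a log2 value, knockdown minus control, from n = 3 arrays a group. For the genes that did not pass, the differences ran from -0.23 to 0.21, and the 95% interval, not adjusted for the number of genes, lay within ±0.3 for 24 of 29.

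**Figure D1:**
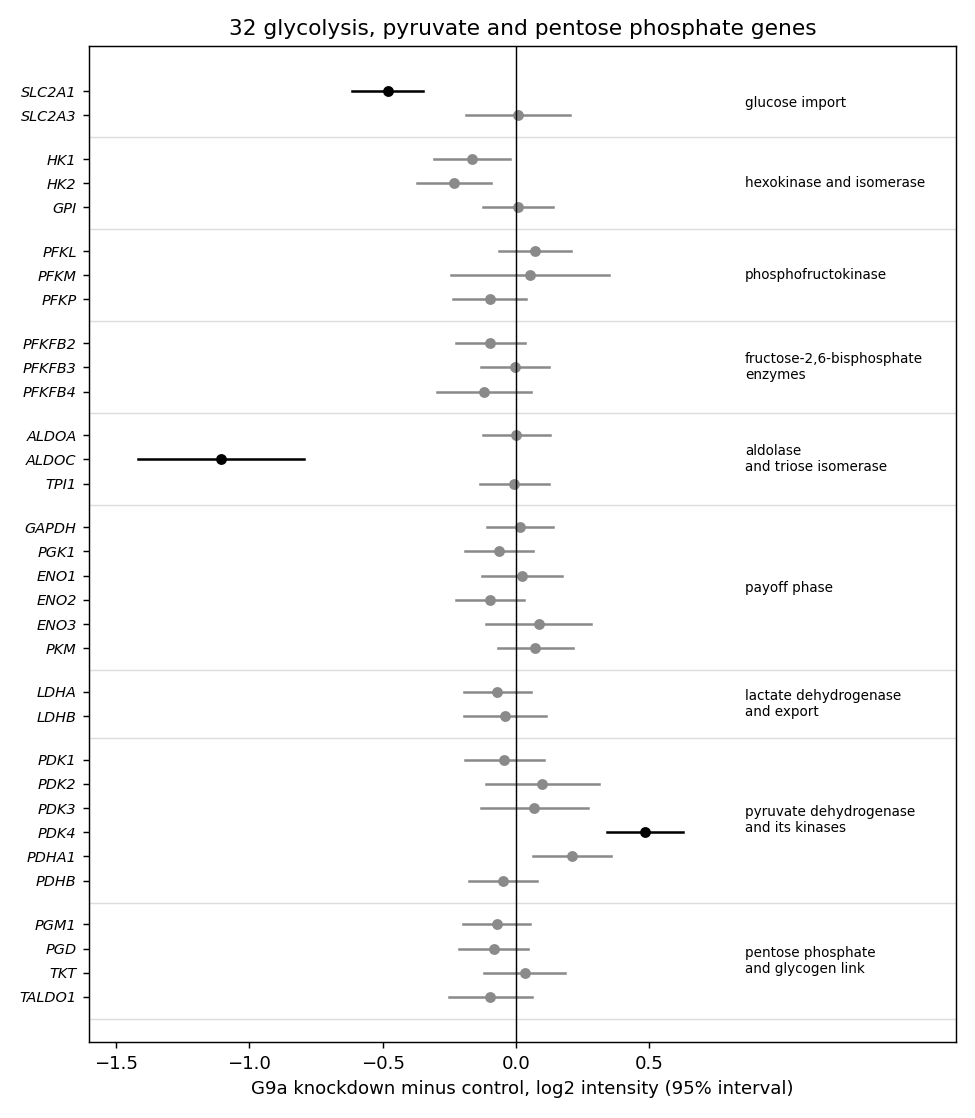
Difference between G9a knockdown and control in log2 intensity (x axis) for each of the 32 genes measured (y axis, in pathway order), with the 95% interval from limma; black marks genes that passed at an adjusted p of 0.05 and grey those that did not. SLC2A1 and ALDOC lie to the left, at -0.48 and -1.11, PDK4 lies to the right at 0.48, and the remaining points lie between -0.23 and 0.21.

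SLC2A1 read 12.97, 12.97 and 12.98 on the knockdown arrays, against 13.47, 13.49 and 13.39 on the control arrays. The 3 knockdown arrays agreed closely and all lay below the control arrays. Its mean was 12.97 ± 0.0049 in knockdown and 13.45 ± 0.05 in control (SD, n = 3), a fall of 0.48 (SE 0.06), or 28.3% on the linear scale (limma, adjusted p = 0.00925). SLC2A3, which encodes a high-affinity glucose transporter, read 11.32, 11.27 and 11.34 in knockdown, against 11.16, 11.26 and 11.47 in control. The SLC2A3 groups overlapped, and its difference of 0.0085 (95% interval -0.19 to 0.20) did not pass. The fall of SLC2A1 kept its size with any array left out (-0.51 to -0.46), and missed the threshold only without knockdown replicate 3 (adjusted p = 0.0579).

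The hexokinases trap glucose in the cell by phosphorylating it. HK2, the isoform often raised in tumours, read 10.54, 10.56 and 10.57 in knockdown, against 10.71, 10.83 and 10.84 in control, a difference of -0.23 (SE 0.06) that did not pass (limma, adjusted p = 0.0835). All HK2 values in knockdown lay below those in control, and the gene passed with a variance trend (0.0357), with array weights (0.0115) and without the dimmest 33.3% of genes (0.0428). It missed the threshold with any array left out (limma, adjusted p from 0.117 to 0.261) and when every probe set was tested (0.178). HK1, the isoform found in most tissues, had a difference of -0.16 (adjusted p = 0.201), also with groups that did not overlap. GPI, the glucose 6-phosphate isomerase gene, had a difference of 0.0088, with a 95% interval of -0.12 to 0.14.

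Phosphofructokinase commits sugar to glycolysis, and none of its 3 genes passed. The liver-type subunit gene PFKL had a difference of 0.07, the muscle-type PFKM 0.05 and the platelet-type PFKP -0.10, with adjusted p from 0.412 to 0.856. PFKM was the least precise of the 32 apart from ALDOC (SE 0.13), with 10.92 on knockdown replicate 3 and 10.72 on control replicate 3 beside 11.13 to 11.18 on the other 4 arrays. Without control replicate 3 the PFKM difference turned to -0.10. The PFKFB enzymes make and break down fructose 2,6-bisphosphate, the allosteric activator of phosphofructokinase; PFKFB2 (-0.10), PFKFB3 (-0.0017) and PFKFB4 (-0.12) did not pass. PFKFB3 read 10.76 to 10.80 in knockdown and 10.75 to 10.80 in control.

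ALDOC changed the most of the 32 genes. It read 8.64, 8.64 and 8.66 in knockdown, against 9.54, 9.60 and 10.11 in control. The knockdown arrays lay close together and the control arrays did not, with control replicate 3 the highest. The mean was 8.65 ± 0.01 in knockdown and 9.75 ± 0.31 in control (SD, n = 3), and the difference was -1.11 (SE 0.14; 95% interval -1.42 to -0.79; limma, adjusted p = 0.00977), so that the knockdown level was 0.465 of the control level. Without control replicate 3 the difference was -0.93 and passed (adjusted p = 0.00283); without knockdown replicate 1 or 3 it missed the threshold (0.0528 and 0.0576), as it did when every probe set was tested (0.0535). ALDOA, the aldolase gene of muscle and most other tissues, read 11.40, 11.39 and 11.36 in knockdown, against 11.39, 11.39 and 11.36 in control, a difference of 0.0025 (95% interval -0.12 to 0.13). TPI1, which interconverts the triose phosphates, had a difference of -0.0055.

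**Figure D2:**
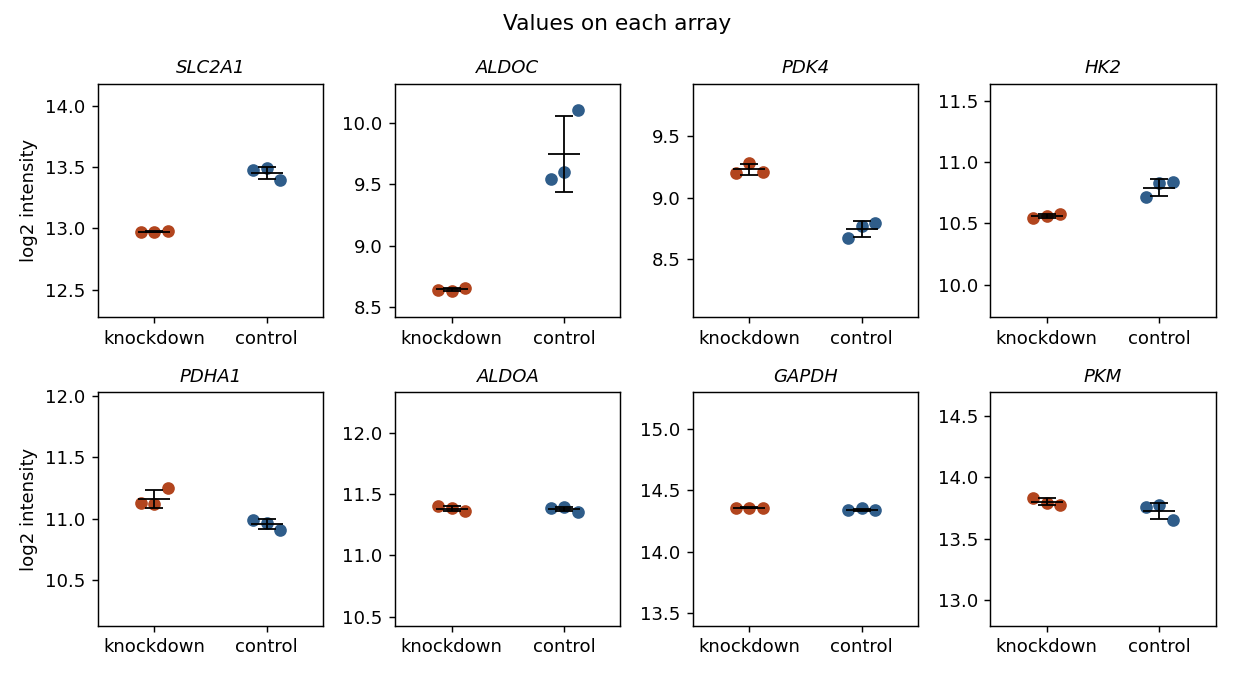
Log2 intensity (y axis) of 8 genes on each array, knockdown left of control; points are arrays and bars are mean and SD (n = 3), and every panel spans the same log2 range. SLC2A1, ALDOC and PDK4 show groups well apart, HK2 and PDHA1 groups that are close without touching, ALDOA and GAPDH groups that overlap, and PKM groups just apart.

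In the second stage of glycolysis, which returns ATP and NADH, all 6 genes measured stayed within the interval of ±0.3 and none passed. GAPDH read 14.36, 14.36 and 14.35 in knockdown, against 14.34, 14.35 and 14.34 in control. These values lie near the highest value of any probe set on any array, 14.8. LDHA (mean 13.91 in knockdown, 13.98 in control), ENO1 (13.89 and 13.87) and PKM (13.80 and 13.73) were also bright. Saturation was not assessed for any gene. The phosphoglycerate kinase gene PGK1 had a difference of -0.06. Of the enolase genes, ENO1, present in most tissues, had 0.02, ENO2, the neuronal form, -0.10, and ENO3, the muscle form, 0.09. PKM, which encodes the pyruvate kinases M1 and M2, had 0.07; the probe set does not separate these splice forms. The lactate dehydrogenase genes LDHA (-0.07), the form that is a known hypoxia target, and LDHB (-0.04) did not pass either. Across these 8 genes adjusted p ran from 0.393 to 0.907.

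PDK4 read 9.20, 9.28 and 9.21 in knockdown, against 8.67, 8.77 and 8.79 in control. All 3 knockdown arrays lay above all 3 control arrays, by more than the spread within either group. The mean was 9.23 ± 0.05 in knockdown and 8.74 ± 0.06 in control (SD, n = 3), a rise of 0.48 (SE 0.06), or 39.9% on the linear scale (limma, adjusted p = 0.0112). PDK4 is known as the pyruvate dehydrogenase kinase induced by fasting. The other kinase genes were PDK1 (-0.04), a known hypoxia target, PDK2 (0.10) and PDK3 (0.07), with adjusted p from 0.597 to 0.763. PDHA1, which encodes the catalytic subunit that these kinases phosphorylate, read 11.13, 11.12 and 11.25 in knockdown, against 10.99, 10.97 and 10.91 in control. Its groups did not overlap, but the difference of 0.21 (SE 0.06) did not pass (limma, adjusted p = 0.120). Of the alternative fits only array weights took PDHA1 past the threshold (0.0150), and with 1 array left out adjusted p was 0.162 to 0.321. PDHB, the partner subunit gene, had -0.05. The rise of PDK4 missed the threshold without knockdown replicate 1 (0.0503) and without knockdown replicate 3 (0.0652), where it was 0.50 in both fits, and when every probe set was tested (0.0526).

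None of the 4 genes of the pentose phosphate branch and the link to glycogen passed. PGM1, which links glycogen with glucose 6-phosphate, had a difference of -0.07; PGD, the oxidative pentose phosphate dehydrogenase, -0.08; the transketolase gene TKT 0.03; and the transaldolase gene TALDO1 -0.10. Adjusted p ran from 0.469 to 0.827. For PGM1, PGD and TALDO1 the knockdown values all lay below the control values, by small steps: PGD read 12.08, 12.14 and 12.13 in knockdown, against 12.22, 12.20 and 12.17 in control.

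Small differences in the downward direction were common. Of the 32 genes, 13 had knockdown values all below the control values and 4 had them all above (PFKL, PKM, PDK4 and PDHA1), that is 40.6% lower and 12.5% higher. Among all genes tested, 27.0% did not overlap, 12.7% lower and 14.3% higher; among the 6139 genes with the highest mean values, which include 27 of the 32, 21.3% were lower and 16.9% higher. The within-group SD of the 32 genes had a median of 0.03 in knockdown and 0.05 in control, beside 0.06 and 0.07 for those 6139 genes. Apart from SLC2A1, ALDOC, HK1 and HK2, the lower 13 were PFKP, PFKFB2, PGK1, ENO2, LDHA, PDHB, PGM1, PGD and TALDO1, which differed by -0.10 to -0.05 and did not pass. With median centring of the arrays 2 of the 32 were wholly higher (6.25%, beside 11.5% of all genes), and after quantile normalization 10 were wholly lower (31.2%, beside 12.5% of all genes). Without control replicate 3, where 3 arrays against 2 overlap less readily for any gene, 6 were wholly higher (18.8%) and 16 wholly lower (50%), beside 23.6% and 19.6% of all genes.

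**Figure D3:**
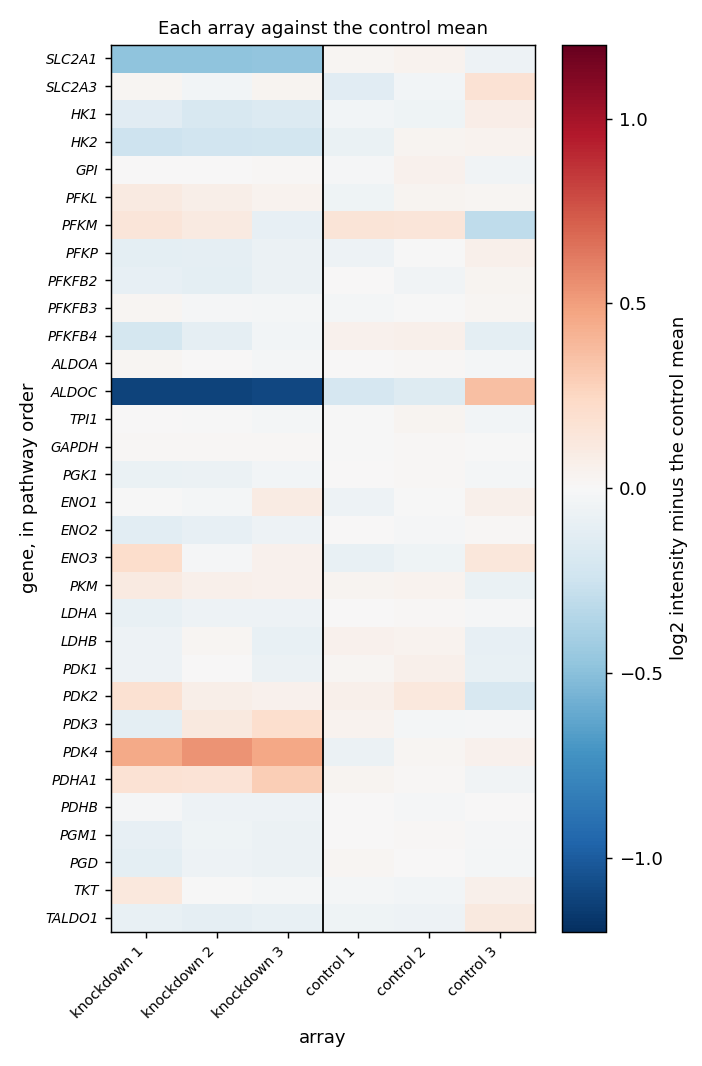
Log2 intensity of each of the 32 genes (rows, in pathway order) on each array (columns, knockdown left of control) minus the gene's control mean; blue is lower and red higher. The knockdown columns are blue for SLC2A1 and ALDOC and red for PDK4, control replicate 3 is red for ALDOC and blue for PFKM, and most other cells are pale.

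Isoforms of the same step were set against each other on each array, as the gap between their log2 values, for 7 pairs. Groups of 3 against 3 cannot go below p = 0.1 in an exact permutation test, so no pair could pass. The gap of ALDOC against ALDOA changed by -1.11, with knockdown arrays at -1.13, -1.12 and -1.07 and control arrays at -0.21, -0.16 and 0.38 about the control mean. The gap of PDK4 against PDK1 changed by 0.53 and that of SLC2A3 against SLC2A1 by 0.49, both with groups that did not overlap. ENO2 against ENO1 changed by -0.12, also without overlap. These 4 pairs reached the smallest possible value (two-sided exact permutation p = 0.1, 0.175 adjusted over 7 pairs). The first 3 each set a gene that passed singly beside one that differed little, so their gaps are not separate evidence. The gaps of HK2 against HK1 (-0.07), PFKFB4 against PFKFB3 (-0.12) and LDHB against LDHA (0.03) overlapped between the groups, with exact p from 0.3 to 0.7.

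**Figure D4:**
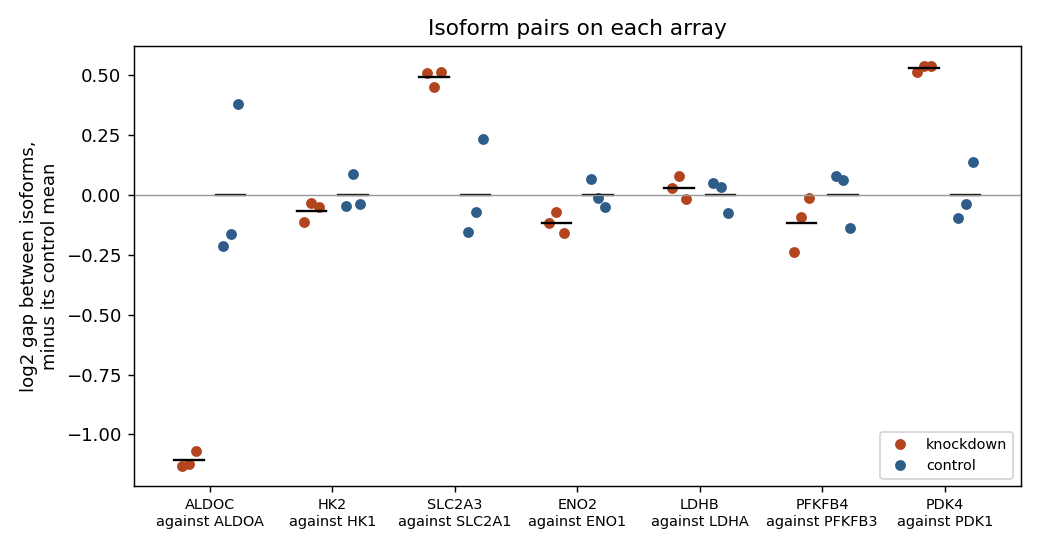
Gap between the log2 values of 2 isoforms on each array, minus its control mean (y axis), for 7 isoform pairs (x axis), knockdown left of control; points are arrays and short lines are group means. The knockdown points lie at about -1.11 for ALDOC against ALDOA and at 0.53 for PDK4 against PDK1, outside the control points, while HK2 against HK1 and LDHB against LDHA overlap.

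Genes around the 3 that passed had differences near 0 as a group. In RefSeq gene order, the 40 tested genes nearest to SLC2A1 (chromosome 1), 20 on each side, had a median difference of -0.02, and all 40 lay above SLC2A1. Around ALDOC (chromosome 17) the median was -0.01, with all 40 above ALDOC and 2 of them called. Around PDK4 (chromosome 7) it was 0.04, with all 40 below PDK4 and 0 called (limma). These 3 genes were taken because they passed, so nearly any other genes would lie to 1 side of them. All 40 genes around HK2, which did not pass, also lay above it.

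The promoter windows of these 3 genes are shown because they are the members that passed, from 250 bases before to 50 bases after the transcription start in RefSeq (GRCh38.p14), on the strand of the gene (minus for all 3). They lie at chr17:28576846-28577145 (ALDOC), chr1:42958819-42959118 (SLC2A1) and chr7:95596467-95596766 (PDK4). Capitals mark matches on either strand to ACGTG or GCGTG, the core letters bound by hypoxia-inducible factors, to CACGTG, the E-box of MYC and of the glucose-responsive Mondo factors, which contains ACGTG, to GTAAACA, a FOXO-type motif, or to AAGGTCA, an estrogen-related receptor motif.
ALDOC: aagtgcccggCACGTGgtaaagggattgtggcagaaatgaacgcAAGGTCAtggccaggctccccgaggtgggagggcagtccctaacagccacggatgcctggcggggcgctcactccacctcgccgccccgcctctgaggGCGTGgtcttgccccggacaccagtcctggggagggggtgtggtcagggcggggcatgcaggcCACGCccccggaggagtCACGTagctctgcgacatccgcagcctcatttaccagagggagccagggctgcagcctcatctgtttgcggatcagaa
SLC2A1: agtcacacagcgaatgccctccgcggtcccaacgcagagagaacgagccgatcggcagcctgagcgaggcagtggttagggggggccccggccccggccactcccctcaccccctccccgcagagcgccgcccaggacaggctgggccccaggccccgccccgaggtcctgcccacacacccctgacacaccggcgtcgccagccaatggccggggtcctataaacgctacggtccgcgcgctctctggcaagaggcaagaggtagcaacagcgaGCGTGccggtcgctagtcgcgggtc
PDK4: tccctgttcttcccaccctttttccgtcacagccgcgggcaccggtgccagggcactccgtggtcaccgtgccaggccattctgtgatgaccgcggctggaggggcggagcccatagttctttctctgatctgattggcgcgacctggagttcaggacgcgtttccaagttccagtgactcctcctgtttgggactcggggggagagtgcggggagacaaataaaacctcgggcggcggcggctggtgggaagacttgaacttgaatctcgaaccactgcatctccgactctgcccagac

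The ALDOC window held 3 matches to ACGTG, of which 2 are the opposite strands of 1 CACGTG at -240, and 2 to GCGTG, and AAGGTCA at -206 from the start site. The SLC2A1 window held GCGTG once, at 26 after the start site, and the PDK4 window held none of the 5. These letters are common: ACGTG occurred in 21.4% of 35116 promoter windows of this length, GCGTG in 36.5%, CACGTG in 7.26%, GTAAACA in 3.42% and AAGGTCA in 3.92%. The table matched 30 of the 32 genes measured, all but SLC2A3 and PFKFB2, some with several windows; over their 57 windows the shares were 38.6%, 42.1%, 14.0%, 1.75% and 8.77% in the same order. Genes whose differences stayed near 0 held them too: the window of GAPDH had 1 CACGTG and no other ACGTG, and a window of LDHA had 2 CACGTG and 1 further ACGTG.

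Among the other genes of these pathways, 1 of 46 measured passed, beside 3.05% of all genes tested. SLC16A7, which encodes the monocarboxylate transporter MCT2 for pyruvate and lactate, read 7.60, 7.69 and 7.81 in knockdown, against 8.99, 8.74 and 8.68 in control. The groups lay far apart, and the fall of 1.10 (SE 0.09; limma, adjusted p = 0.00329) is of the size seen for ALDOC; it passed in all 14 alternative fits. MPC1, a subunit gene of the mitochondrial pyruvate carrier, came next by size (-0.29) and did not pass (limma, adjusted p = 0.0558). MPC1 passed with a variance trend (0.0224), with array weights (0.0267) and without the dimmest 33.3% of genes (0.0281). It missed the threshold with any array left out (0.0835 to 0.162) and when every probe set was tested (0.140). Its partner MPC2 had -0.0019. The median over the 46 genes was 0.02, beside 0.03 for all genes, and 14 of the 46 lay in the lowest 33.3% of genes by mean value.

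Of 20 regulators of glycolytic genes measured, 1 rose and 1 fell, beside 1.28% higher and 1.78% lower among all genes tested. VHL, whose product marks hypoxia-inducible factors for degradation, read 9.73, 9.69 and 9.72 in knockdown, against 9.32, 9.25 and 9.38 in control (0.39, SE 0.06; limma, adjusted p = 0.0173); the 40 tested genes around it had a median of 0.19, and 4 of them passed. ARRDC4, an arrestin-domain gene known to restrain glucose uptake, read 8.40, 8.38 and 8.41 in knockdown, against 8.78, 8.92 and 8.69 in control (-0.40, SE 0.07; adjusted p = 0.0300). Both calls were lost in 5 of the 6 fits with 1 array left out, with adjusted p up to 0.0983 and 0.122, and when every probe set was tested (0.0665 and 0.0979); they remained without control replicate 3. HIF1A (-0.14), which encodes the oxygen-regulated subunit of HIF-1, MYC (-0.18) and TXNIP (-0.11), a relative of ARRDC4, did not pass (adjusted p from 0.214 to 0.451). FBP1, the phosphatase gene of gluconeogenesis that reverses the phosphofructokinase step, read 9.85, 9.99 and 9.75 in knockdown, against 9.21, 9.20 and 9.01 in control (0.72, SE 0.09; adjusted p = 0.00872, 0.0503 without knockdown replicate 1 and 0.0501 when every probe set was tested), while FBP2 had a difference of 0.07 and did not pass.

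**Figure D5:**
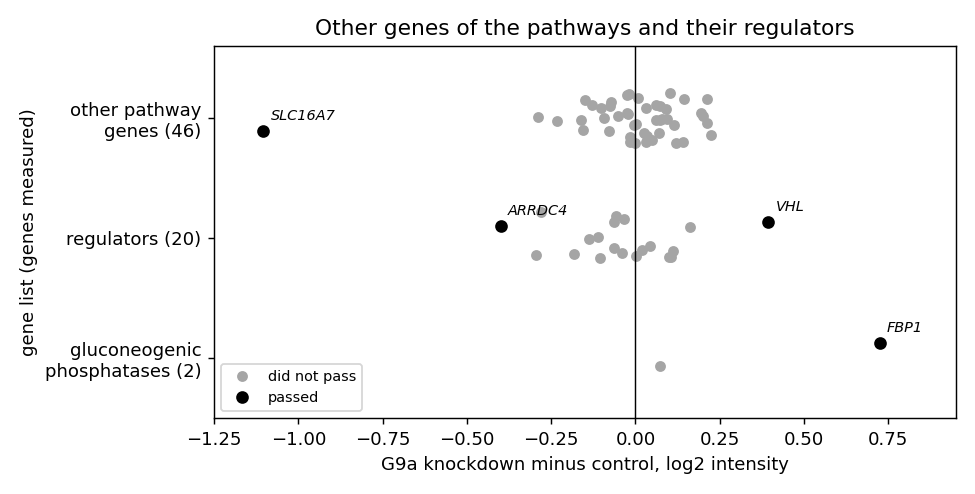
Difference between G9a knockdown and control in log2 intensity (x axis) for other genes of these pathways, regulators and gluconeogenic phosphatases (y axis, scattered within a list for legibility); each point is a gene, black where it passed. SLC16A7 stands apart at -1.10, with ARRDC4 at -0.40, VHL at 0.39 and FBP1 at 0.72.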

How the data were processed

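Total RNA of 3 knockdown and 3 control samples was hybridised to single-colour arrays. The deposited log2 intensities had already been summarised per probe set and scaled by the authors, with software and genome build not given in the sources used here. Log base and scaling were inferred from the range (2.13 to 14.8) and from array medians of 7.79 to 7.86. No detection call was available here, so dim values may be background, and 6 arrays limit the precision. Of 33297 probe sets, 19460 were annotated to 1 gene, 1754 to several and 12083 were unlisted; symbols were updated through Entrez numbers. Groups came from sample titles. All 18417 genes were fitted with limma 3.58.1 under R 4.3.3 (lmFit, eBayes, two-sided, Benjamini-Hochberg, adjusted p of 0.05); isoform gaps used exact permutation in SciPy 1.17.1. Members and gene lists were chosen with earlier results of these data known. Named were all members, EHMT2, other list genes that passed, the 2 largest differences of each list, and a few set genes; other genes named for contrast were chosen after their values were seen. Same-numbered arrays were not treated as pairs in the main fit. Their deviations from group means correlated at -0.246, 0.122 and 0.0877, which cannot decide whether they were processed together. The fit was checked on simulated arrays. Alternatives are given in the closing section.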

Additional observations from a re-analysis of the deposited data

How the results depend on the processing

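SLC2A1, ALDOC and PDK4 passed also under quantile normalization, median centring and the replicate block. Each has only 1 probe set annotated to it alone, so a mean over a gene's probe sets repeats its main values. SLC2A1, ALDOC and PDK4 kept their direction in each of the 14 alternatives. Their differences are left unchanged by a variance trend, leaving out the lowest 33.3% of genes, testing every probe set and the replicate block. The same holds for the mean over probe sets, so direction could not turn in those settings. Members higher, main count 1, were 2 with array weights, 0 with every probe set tested, and 0 to 1 with 1 array left out; members lower, main count 2, were 3 with a variance trend, array weights or the lowest 33.3% of genes left out, 1 with every probe set tested, and 0 to 2 with 1 array left out. Genes higher and lower over the whole table (235 and 327) were 434 and 649 with a variance trend, 1718 and 1610 with array weights, 398 and 574 with the lowest 33.3% left out, 20 and 27 with every probe set tested, 101 and 116 with the replicate block, and 21 to 222 and 23 to 313 with 1 array left out. The replicate block, which treats same-numbered arrays as pairs, gave 0 regulators called (main count 2) and changed no call among the members. Regulators called were 4 with array weights, 0 with every probe set tested and 0 to 2 with 1 array left out. Other pathway genes called (main count 1) were 2 with a variance trend or the lowest 33.3% left out and 7 with array weights. The median over the members (-0.02) was -0.0032 after quantile normalization, -0.0438 with median centring, -0.0432 with array weights and -0.0406 to -0.0108 with 1 array left out. Wholly higher members (4) were 2 with median centring and 4 to 6 with 1 array left out, settings chosen for this count after seeing the data.

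Some genes changed sign, and the largest main difference among them was 0.10, for PDK2. With median centring SLC2A3 was -0.0118, GPI -0.0115, ALDOA -0.0178 and GAPDH -0.0052; with array weights GPI was -0.0276, PFKM -0.14, ALDOA -0.0187 and PDK2 -0.0307; after quantile normalization PFKFB3 was 0.0169 and TPI1 0.0236; with the mean of probe sets TPI1 was 0.0027. With 1 array left out the ranges were -0.0592 to 0.0946 for SLC2A3, -0.0126 to 0.0354 for GPI, -0.0966 to 0.13 for PFKM, -0.0154 to 0.0101 for PFKFB3, -0.0085 to 0.0142 for ALDOA, -0.0228 to 0.0121 for TPI1, -0.0158 to 0.0540 for ENO1, -0.0136 to 0.0636 for TKT, -0.0159 to 0.18 for FBP2 and -0.0104 to 0.0524 for the gap of LDHB against LDHA. The cause of these changes was not tested. Testing every probe set changed no sign, since it leaves the differences as they are. It adjusts over more tests and fits the variance over all probe sets. Leaving out an array leaves fewer samples.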
